A study of Mus musculus with 6 samples.

Results

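A cluster of KRAB zinc finger genes lies on distal mouse chromosome 4, and its DNA methylation was read here from all CpGs at chr4:145000000-147900000 of the mm10 genome build, an interval of 2.9 Mb. Reduced representation bisulfite sequencing (RRBS), which reads the ends of fragments cut by MspI at CCGG, gave at least 1 read at 5006 CpGs of the interval, among 4175106 CpGs of the whole series. Of these 5006 CpGs, 2631 were seen in all 6 libraries and 1934 had 5 or more reads in each, and levels are given for these 1934. CD8+ T cells were enriched from the lymph nodes (LNs) of 13-week-old C57BL/6N mice, with 2 libraries of 1 mouse each per genotype. WT mice carried no transgene, hSTAT5B mice (genotype label hSTAT5B +/T) carried human STAT5B, and hSTAT5BN642H mice (hSTAT5B N642H +/T) carried human STAT5B with the N642H change found in T cell leukemia and lymphoma. Both transgenes were driven by the Vav1 promoter, which is active across blood cells, each transgenic genotype is 1 mouse line, and the hSTAT5BN642H mice had disease. The WT mice were bought and the transgenic mice were bred in house, so genotype and colony cannot be told apart.

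KRAB zinc finger proteins bind DNA through arrays of C2H2 fingers and recruit the corepressor TRIM28 and the methyltransferase SETDB1, and many of them silence transposable elements. Their genes arose by repeated local duplication, so neighbouring genes and the sequence between them resemble each other. CpG islands (CGIs), stretches rich in CpG, are unmethylated in most tissues, whereas the CpGs between them are mostly methylated. The interval was chosen with methylation levels and reads of these libraries already known, so the differences between genotypes in it are given as a description.

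Of 28 protein-coding genes annotated in the interval, 19 encoded at least 3 C2H2 motifs, with 3 to 20 motifs each. Another 61 annotated genes were pseudogenes, 50 of them of the type processed pseudogene. Among the 2898 MspI read windows of 50 bases in the interval, 56.9% had at least 1 further exact copy in the genome, against 21.7% of windows genome-wide, and for 48% of these multicopy windows every copy lay within the interval. Of the 1934 CpGs used, 1353 lay in multicopy windows, where a read cannot be assigned to 1 locus from its sequence, 556 in single-copy windows, and 25 outside any window. How the aligner treated such reads is not given in the sources used here.

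The interval held 33 CGIs, and 26 of them belonged to 6 families of related sequence, labelled A to F here, in which members were linked at more than 75% identity. Family D, with 5 CGIs of 422 to 438 bases, holds the RefSeq starts of Zfp978 and Zfp982, and its stretches matching the 120 bases before the Zfp978 start are shown because the genotypes differed most there. Both starts are RefSeq's alone: GENCODE begins Zfp978 further downstream at 147361303 and Zfp982 at 147492417, and has processed pseudogenes, Gm13162 and Gm13161, at these CGIs. Within 1 kb of the GENCODE start, Zfp978 was at 82.7% to 92.6% (2 CpGs). Capitals mark the CpGs with 5 or more reads in every library.
Zfp978 (chr4:147124762-147124881, plus strand): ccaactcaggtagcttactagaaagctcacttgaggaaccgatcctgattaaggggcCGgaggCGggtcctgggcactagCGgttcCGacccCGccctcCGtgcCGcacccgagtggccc
Zfp982 (chr4:147442983-147443109, plus strand): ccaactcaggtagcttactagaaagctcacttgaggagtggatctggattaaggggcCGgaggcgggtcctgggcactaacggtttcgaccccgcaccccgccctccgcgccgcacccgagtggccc
Gm13243 (chr4:145774243-145774362, plus strand): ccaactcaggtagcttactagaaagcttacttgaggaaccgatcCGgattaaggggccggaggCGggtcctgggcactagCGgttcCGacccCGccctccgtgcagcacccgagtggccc
Gm13168 (chr4:146263148-146263274, plus strand): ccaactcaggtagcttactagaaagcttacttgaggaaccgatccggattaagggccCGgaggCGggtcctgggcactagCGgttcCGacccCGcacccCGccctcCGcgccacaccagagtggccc
Gm13240 (chr4:146603729-146603840, plus strand): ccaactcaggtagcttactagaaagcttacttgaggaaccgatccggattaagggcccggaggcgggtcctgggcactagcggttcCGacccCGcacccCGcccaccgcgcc

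Family E is shown because its members resemble each other but differed in level. The 120 bases of the CGI at Gm20760 with the most CpGs measured matched the other members at 87.5% to 88.3% identity, and capitals again mark the CpGs used.
Gm20760 (chr4:146932811-146932930, plus strand): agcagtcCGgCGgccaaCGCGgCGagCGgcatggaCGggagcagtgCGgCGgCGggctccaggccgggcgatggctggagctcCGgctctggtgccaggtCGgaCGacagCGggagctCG
Gm13238 (chr4:145837285-145837404, plus strand): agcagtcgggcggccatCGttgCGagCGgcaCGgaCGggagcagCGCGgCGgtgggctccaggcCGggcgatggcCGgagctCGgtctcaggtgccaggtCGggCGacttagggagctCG
Gm13146 (chr4:147187774-147187893, plus strand): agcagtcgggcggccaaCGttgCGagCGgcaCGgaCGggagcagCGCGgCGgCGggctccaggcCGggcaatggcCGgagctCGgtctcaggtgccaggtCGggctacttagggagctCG
Over this stretch the level at Gm20760 was 23.4% and 33.2% in the WT libraries, 26.7% and 23% in the hSTAT5B libraries, and 37.5% and 32.7% in the hSTAT5BN642H libraries (15 CpGs). At Gm13238 it was 84.5%, 74.6%, 89.4%, 82%, 81.7%, and 74.4% in the same order of libraries (14 CpGs), and at Gm13146 it was 77.1%, 72.9%, 74.7%, 78.8%, 71.2%, and 77.9% (14 CpGs). Every library was thus lower at Gm20760 than at both relatives.

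Apart from the RefSeq starts of Zfp978 and Zfp982 in family D CGIs, the starts of the zinc finger genes were CpG-poor and largely unread. None of the 19 genes had a CGI within 1 kb of its GENCODE start, and 1 of them, Zfp991, had 3 or more CpGs used in that window. RefSeq promoters of 300 bases (250 before and 50 after the start, GRCm38) were matched for 13 of the genes, at 16 starts. The RefSeq start of Zfp978 was not among these 16, and that of Zfp982 in a CGI was. The matched promoters held a median of 7 CpGs, against 16 over all 32851 promoters. The site that MspI cuts, CCGG, was present in 18.8% of them, against 52.8% of all promoters. The 100 bases before 3 of these starts show how alike they are, with every CpG in capitals, none of which had 5 reads in all libraries.
Rex2 (chr4:147021750-147021849, plus strand): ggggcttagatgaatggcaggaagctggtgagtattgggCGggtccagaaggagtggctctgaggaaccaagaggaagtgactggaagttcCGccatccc
Zfp985 (chr4:147553177-147553276, plus strand): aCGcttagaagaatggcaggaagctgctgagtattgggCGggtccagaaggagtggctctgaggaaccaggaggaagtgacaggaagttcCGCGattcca
Zfp988 (chr4:147305504-147305603, plus strand): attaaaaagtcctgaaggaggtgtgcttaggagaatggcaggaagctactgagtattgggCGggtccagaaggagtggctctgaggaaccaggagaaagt
The letters GGGCGG, searched on both strands, were in 68.8% of the matched promoters and in 35.7% of all promoters. The palindrome TTCNNNGAA, the core of the STAT5 motif, was in 1 of the 16, that of Zfp933, and in 8.3% of all promoters.

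Where the bodies of zinc finger genes were read at 10 or more CpGs, in 6 genes, they were highly methylated, though many of these CpGs were multicopy. The body of Zfp986 lay between 93.1% and 95.9% in the 6 libraries (30 CpGs), that of Zfp981 between 87.9% and 92.6% (81 CpGs), that of Zfp600 between 89.2% and 92.9% (12 CpGs), and that of Zfp933 between 96.4% and 97.7% (18 CpGs). Rex2 lay between 89.5% and 93.3% (13 CpGs) and Zfp982 between 87.7% and 95% (10 CpGs). The 5-kb bins with 3 or more CpGs used over Zfp981, Zfp600, and Rex2 held 0 single-copy CpGs. Their levels thus cannot be assigned to 1 gene. Single-copy CpGs were 5 of 24 in the bin at 145885001 (Zfp986), 0 of 15 at 147835001 (Zfp933), and 4 of 8 at 147505001 (Zfp982). The exon that carries the fingers could be read in 1 gene, Zfp933, with 3 CpGs between 95.3% and 100% in the 6 libraries. The start of Zfp991 was lower than these bodies (5 CpGs, 4 of them multicopy). It was at 30.4% and 48% in WT, 28.5% and 57.7% in hSTAT5B, and 37.9% and 50.6% in hSTAT5BN642H. The replicates of each genotype thus differed by more than the genotypes. Starts of genes that flank the cluster were low, as was that of the zinc finger gene Zfp933 (0% to 3.84%, 2 CpGs). Vps13d, a lipid transfer protein gene, had a start (CpGs within 1 kb) at 0.66% to 5.36% (11 CpGs), Tnfrsf8, which encodes CD30, at 0% to 5.83% (10 CpGs), and Miip and Fv1, whose start windows hold the same 17 CpGs, at 1.37% to 5.04%. Flanking bodies with 10 or more CpGs in the interval varied. Mfn2 was at 93.8% to 98.1% (20 CpGs), Vps13d at 73.4% to 76.5% (52 CpGs), and Miip at 25.4% to 26.1% (20 CpGs).

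Along the interval, highly methylated sequence alternated with CGIs of intermediate level. Of 116 bins of 5 kb with 3 or more CpGs used, 80 had a mean above 80%, 32 lay between 10% and 80%, and 4 were below 10%. The 1050 CpGs outside CGIs were at 85.3% and 86% in WT, 85.8% and 85.9% in hSTAT5B, and 85.1% in both hSTAT5BN642H libraries. Those in soft-masked repeats were at 87.9% to 88.8% in the 6 libraries (580 CpGs) and the others at 81.3% to 82.6% (470 CpGs).

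**Figure D1:**
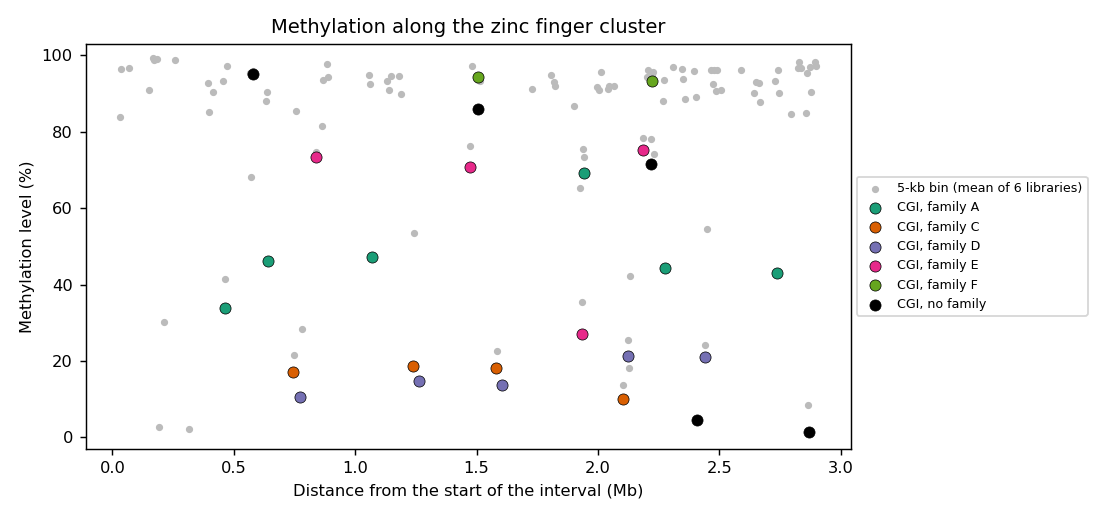
Mean methylation level over 6 libraries (%) of 5-kb bins (grey) and of CGIs (coloured by sequence family) against the distance from the start of the interval (Mb). Most bins sit above 80%, and CGIs of families A, C, D, and E recur along the interval at levels between 10% and 80%.

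CGIs of the cluster were mostly partially methylated. Among the 26 CGIs with 3 or more CpGs used, 20 (76.9%) had a mean level between 10% and 80%, 2 were below 10%, and 4 above 80%. Over all 13347 CGIs so measured in the genome, 8.75% lay between 10% and 80% and 85.5% below 10%. The 2 other runs with the most genes named Zfp did not show such CGIs, though few of their CGIs were measured. Runs were picked by gene name, so zinc finger genes with other names, such as Gm13212 and Rex2 here, were not counted. On chromosome 13 (67038596 to 67827002, 23 genes named Zfp) the single CGI measured had a level of 0.927%, and on chromosome 17 (21008903 to 23599487, 23 genes named Zfp) 7 of 10 CGIs were below 10% and the other 3 above 80%. The summary over CpGs rather than CGIs hides this contrast: CGI CpGs of the chromosome 17 run averaged 31.1% ± 0.824 in WT (SD, n = 2), close to the 32.6% ± 1.53 (SD, n = 2) of the chromosome 4 interval.

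**Figure D2:**
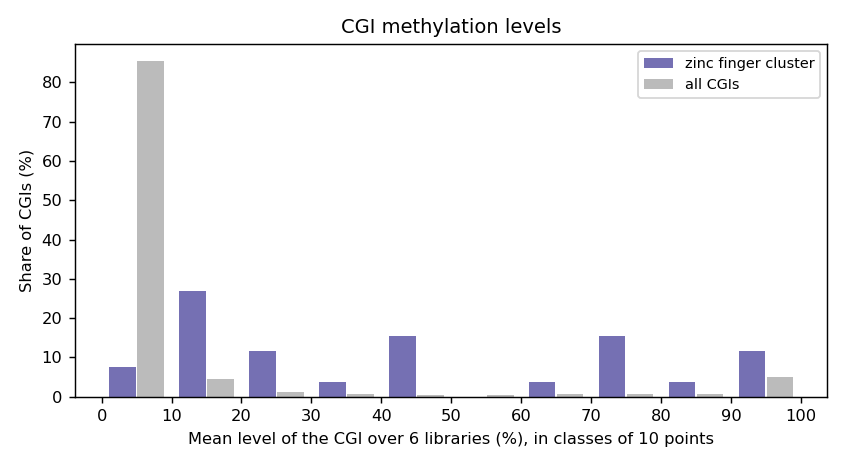
Share of CGIs (%) in each class of mean level over 6 libraries (classes of 10 points), for the zinc finger cluster (26 CGIs) and for all 13347 CGIs. All CGIs pile up below 10% (85.5%), whereas those of the cluster spread over the classes up to 100%.

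Levels differed between the families and also within some of them. Family A, 6 CGIs at Smarca5-ps (annotated as a transcribed processed pseudogene, from the chromatin remodeller gene Smarca5) and at Gm13231, Gm13034, Gm13140, Gm13135, and Gm13136, ranged in mean level from 33.8% to 69.3%, at pairwise identities of 89.8% to 96.5%. Within it, Gm13140 stood apart at 63.4% to 74.8% in the 6 libraries, while every other member was at or below 52.7% in every library. Family C, 4 CGIs at Gm13244, Gm13169, Gm13233, and Gm13142, was at 8.11% to 20.9% in every library, and 83.3% of its CpGs were multicopy, so most of its reads cannot be assigned to 1 member. Family D was at 6.94% to 26.2%. In family E, Gm13238, Gm13241, and Gm13146 were at 65.2% to 78.6% in every library, and Gm20760, with 32 of its 34 CpGs in single-copy windows, at 21.4% to 31.7%. The 2 CGIs of family F had no annotated start within 100 bases and were at 85.7% to 100%. The 5 CGIs of family B, at Gm13232, Gm13167, Gm13237, Gm20875, and Gm13160, held no CpG with 5 reads in all libraries. Besides the CGI at Smarca5-ps, 22 of the 26 family CGIs lay within 600 bases of a gene of the type processed pseudogene.

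Averaged over the 884 CGI CpGs, the level was 31.5% and 33.7% in the WT libraries, 34.4% and 34.7% in the hSTAT5B libraries, and 34.9% and 35.3% in the hSTAT5BN642H libraries. The WT libraries were lower than all others, and WT replicate 1 was the lowest. The difference to WT was 2.53 points for hSTAT5BN642H and 1.95 points for hSTAT5B, and without WT replicate 1 it was 1.44 and 0.862 points. With 2 libraries against 2, the exact two-sided permutation test cannot give less than p = 0.333, which was its value for both. In the whole genome, the mean of CGI CpGs was higher than in WT by 0.241 points in hSTAT5BN642H and by 0.148 points in hSTAT5B. Outside CGIs, hSTAT5BN642H differed from WT by -0.548 points in the interval and by -0.752 points in the genome. In CGI CpGs of single-copy windows (282 CpGs), the level was 25.2% and 26.5% in WT, 29.5% and 29% in hSTAT5B, and 29.8% and 29.3% in hSTAT5BN642H, with no overlap between WT and the transgenic libraries. In multicopy windows (593 CpGs) it was 34.4% and 36.8%, 36.5% and 37.1%, and 37.2% and 37.9% in the same order.

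Both WT libraries were lower than all 4 transgenic libraries at 6 of the 26 CGIs and higher at 0, against 8.43% and 5.81% of all 13347 CGIs. These CGIs were those at Gm13231, Gm13140, Gm13142, the RefSeq starts of Zfp978 and Zfp982, and an unannotated one at chr4:147219449-147219792. They are named for a pattern seen in their values. At the Zfp978 start, where 25 of 29 CpGs were single-copy, the level was 14.7% and 14.6% in WT, 23.3% and 25.5% in hSTAT5B, and 26.2% and 23.9% in hSTAT5BN642H. WT and the transgenic libraries did not overlap, and the 2 transgenic genotypes did. At the Zfp982 start (19 CpGs, 15 of them single-copy) it was 18.5% and 14.7% in WT, 20.3% and 22.1% in hSTAT5B, and 25.3% and 25% in hSTAT5BN642H. Averaged over these 19 CpGs, the 3 genotypes did not overlap. The difference of hSTAT5B to WT was largest at the 4 multicopy CpGs. These were at 23.5% to 52% in WT, 46.9% to 62.9% in hSTAT5B, and 44.6% to 54% in hSTAT5BN642H. Much of that difference thus cannot be assigned to this locus. At most of the 15 single-copy CpGs, WT and hSTAT5B overlapped. Both WT libraries were below all 4 transgenic libraries at 5 of the 19 CpGs. At Gm13140 (15 CpGs, 8 of them multicopy) the level was 63.4% and 65.5%, 70.2% and 73.3%, and 68.6% and 74.8% in the same order of genotypes. At the unannotated CGI (21 CpGs, 12 of them multicopy) it was 68.6% and 63%, 74.9% and 71.9%, and 74.1% and 77.6%. Multicopy CpGs were also 27 of 38 at Gm13231 and 41 of 79 at Gm13142. The other relatives in family D showed no such separation of WT from all transgenic libraries: Gm13243 was at 8.74% to 11.7% in all libraries, Gm13168 at 8.92% to 17.4%, and Gm13240 at 11.1% and 10.1% in WT, 17.2% and 6.94% in hSTAT5B, and 22.4% and 15% in hSTAT5BN642H.

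**Figure D3:**
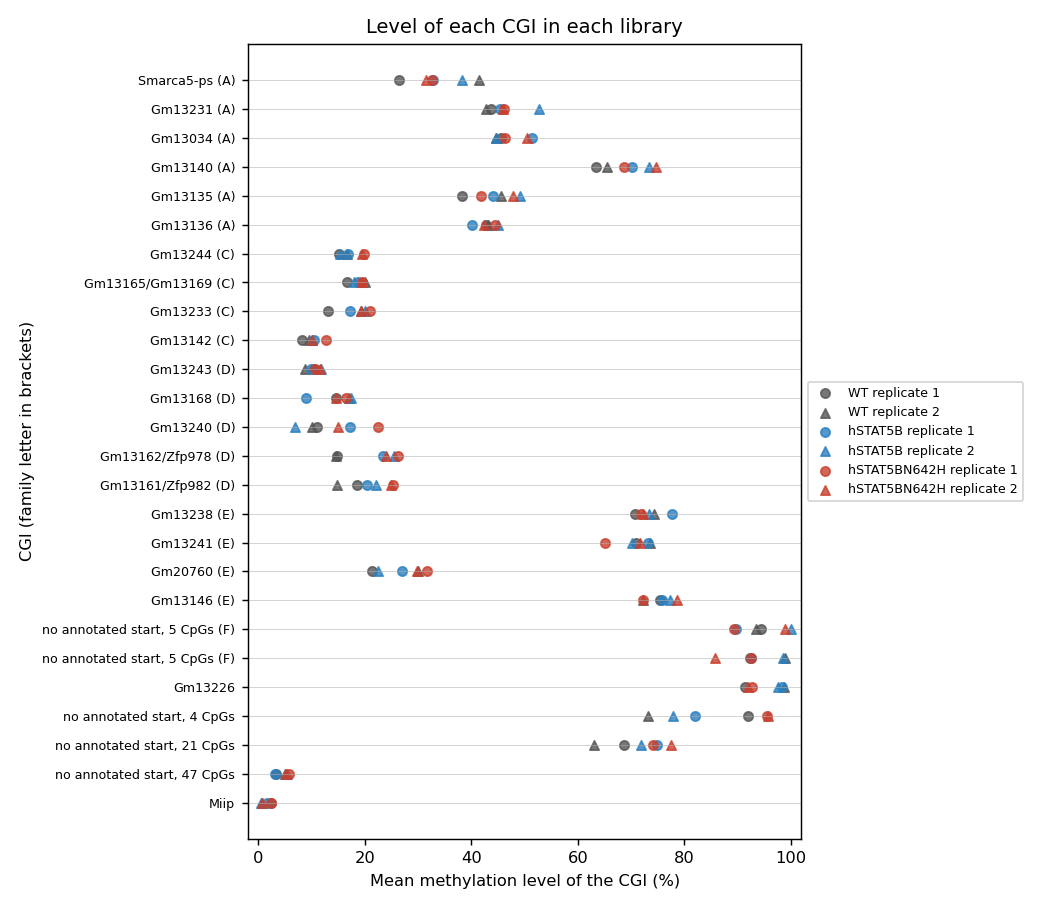
Mean methylation level (%) of each of the 26 CGIs in each library (circle replicate 1, triangle replicate 2, colour by genotype), with rows grouped by sequence family. The CGIs at Zfp978 and Gm13140 have both WT points to the left of the 4 transgenic points, and most other rows overlap.

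Within the Zfp978 CGI the gap was larger upstream of the start than downstream. The 7 CpGs from 63 to 16 bases before it (147124819 to 147124866), all single-copy, averaged 23.4% and 14.7% in WT, 45.5% and 49.7% in hSTAT5B, and 47.4% and 37.4% in hSTAT5BN642H. At each of the 7, both WT libraries were below all 4 transgenic libraries. These CpGs fit on 1 read of 50 bases, and each had 15 to 49 reads in a library, so they are largely the same molecules and not independent. The 22 CpGs downstream were at 11.9% and 14.5% in WT, 16.3% and 17.7% in hSTAT5B, and 19.5% and 19.6% in hSTAT5BN642H. Their mean was also lower in both WT libraries than in the 4 transgenic libraries, and single CpGs showed this order at 6 of the 22. At Zfp982, the CpG measured 74 bases upstream was at 22% and 18.4% in WT, 35.3% and 26.8% in hSTAT5B, and 42.2% and 30% in hSTAT5BN642H, with 56 to 90 reads. At Gm13243, the matching stretch shown above was at 14.9% and 8.54%, 8.74% and 7.33%, and 12.5% and 6.86% (5 CpGs), with no such gap.

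**Figure D4:**
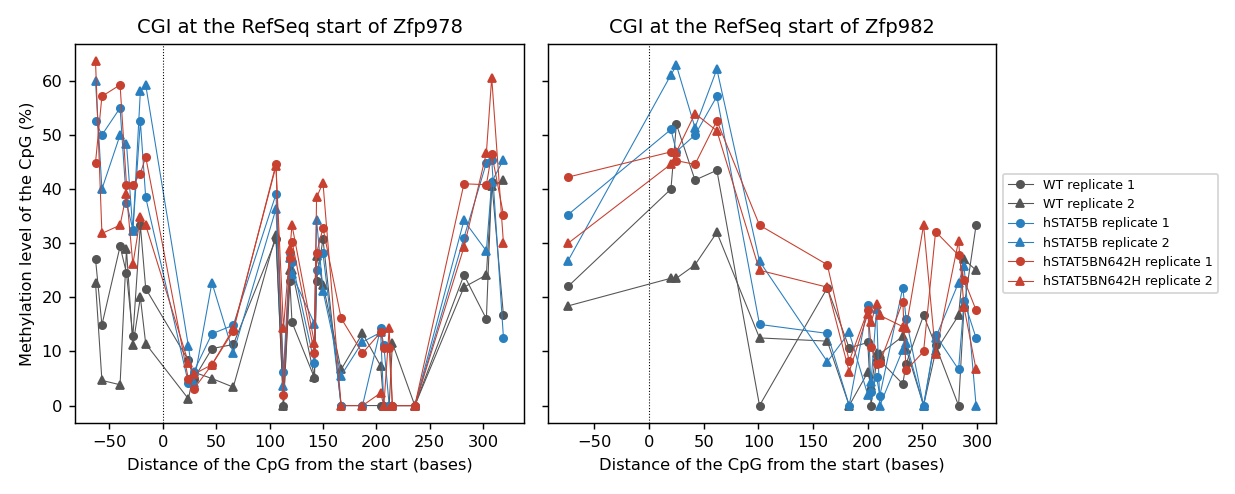
Methylation level (%) of single CpGs in the CGIs at the RefSeq starts of Zfp978 and Zfp982 against their distance from the start (bases), for each library. Upstream of Zfp978 the WT lines run below the transgenic lines at all 7 CpGs, and the lines mix further downstream.

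Across the 26 CGIs, hSTAT5BN642H differed from WT by 5 points or more at 8, of which 7 were higher, against 5.69% of all CGIs (3.67% higher). The median difference was 2.09 points in the interval and 0.152 points over all CGIs. hSTAT5B differed from WT by that much at 4 CGIs, all higher (genome 5.14%, 3.12% higher), and hSTAT5BN642H from hSTAT5B at 5, of which 3 were higher (genome 5.84%, 3.23% higher). The 3 comparisons share libraries. The share past 5 points goes with the level: among CGIs at 10% to 80%, hSTAT5BN642H differed from WT by 5 points or more at 6 of 20 in the interval (30%) and at 37.7% of 1168 genome-wide. All 6 were higher in hSTAT5BN642H, against 271 of the 440 past 5 points genome-wide. The median difference of all CGIs at 10% to 80% was 2.94 points in the interval and 0.822 points in the genome. Replicates of WT themselves differed by 5 points or more at 8 of the 26 CGIs. The largest difference of hSTAT5BN642H to WT, 13 points, was at a CGI of 4 multicopy CpGs in Zfp981 (chr4:146503845-146504254), with 91.9% and 73.2% in WT, 82% and 77.9% in hSTAT5B, and 95.5% and 95.7% in hSTAT5BN642H. No CGI of the interval passed the limma test, run on the log2 of methylated over unmethylated reads (adjusted p of at least 0.85, 0.871, and 0.796 in the 3 comparisons). The unadjusted p was under 0.05 at 1, 0, and 1 of them (genome 5.7%, 6.19%, and 5.7%), and 0 of 13347 CGIs passed genome-wide. With 2 libraries per genotype this test has little power for moderate differences. In simulated data it missed moderate ones, which were larger than any CGI difference between genotypes in the interval, and recovered very large ones. Its lack of calls therefore does not show that levels were alike.

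Bins of 5 kb gave shares that turned on how many CpGs a bin had to hold. Of 116 bins, hSTAT5BN642H differed from WT by 5 points or more at 18 (15 of them without overlap of the genotypes), of which 12 were higher and 6 lower, against 18.6% of all bins (14.1% without overlap, 6.65% higher, and 11.9% lower). hSTAT5B differed from WT at 8 bins (genome 15%) and hSTAT5BN642H from hSTAT5B at 15 (genome 18.3%). Among the 58 bins with 10 or more CpGs used, the counts were 9 (15.5%, genome 6.61%), 3 (5.17%, genome 4.55%), and 6 (10.3%, genome 6.16%) in the same order. Of the 9, 8 were higher in hSTAT5BN642H, against 952 of the 1882 such bins in the genome. Each of the 9 overlaps a CGI, and the bin at 146600001 holds just the 13 CpGs of the CGI at Gm13240. These bins and the CGIs are thus not separate measurements. The bin at 147120001, which covers the upstream part of the Zfp978 CGI, was at 17.6% and 11.5% in WT, 30.9% and 33.5% in hSTAT5B, and 31.3% and 27.4% in hSTAT5BN642H (13 CpGs). In the opposite direction, the bin at 147230001, over the pseudogene Gm13147, was at 81.3% and 78.4% in WT, 79% and 72.1% in hSTAT5B, and 63.6% and 70.5% in hSTAT5BN642H (3 CpGs). The bin at 146925001 was at 71.4% in both WT libraries, 63% and 60% in hSTAT5B, and 69.2% and 56.1% in hSTAT5BN642H, from 3 CpGs with as few as 15 reads in all. At the remaining 7 of the 10 bins with the largest differences without overlap, the difference of hSTAT5BN642H to WT ran from -3.82 to 9.16 points. No bin of the interval passed the limma test in any comparison (adjusted p of at least 0.588, and unadjusted p under 0.05 at 5, 2, and 6 bins, against 7.61%, 6.35%, and 7.51% of all bins).

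The number of reads from the cluster differed little between genotypes. The interval received 1924 and 1903 RPM (CpG reads scaled to a library total of 1000000) in WT, 1900 and 1807 in hSTAT5B, and 2017 and 1926 in hSTAT5BN642H. Multicopy windows gave 66.1% and 68.5% of them in WT, 69.5% and 70.3% in hSTAT5B, and 71% and 70.9% in hSTAT5BN642H. In RPM, multicopy windows gave 1433 and 1365 in hSTAT5BN642H and 1271 to 1321 in the other libraries. This order of the genotypes was not tested. WT replicate 1 stood apart in 1 class of reads: 157 RPM fell outside MspI windows there, against 39 to 66.5 in the other libraries, and genome-wide the share of such reads was 7% against 1.37% to 2.67%.

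**Figure D5:**
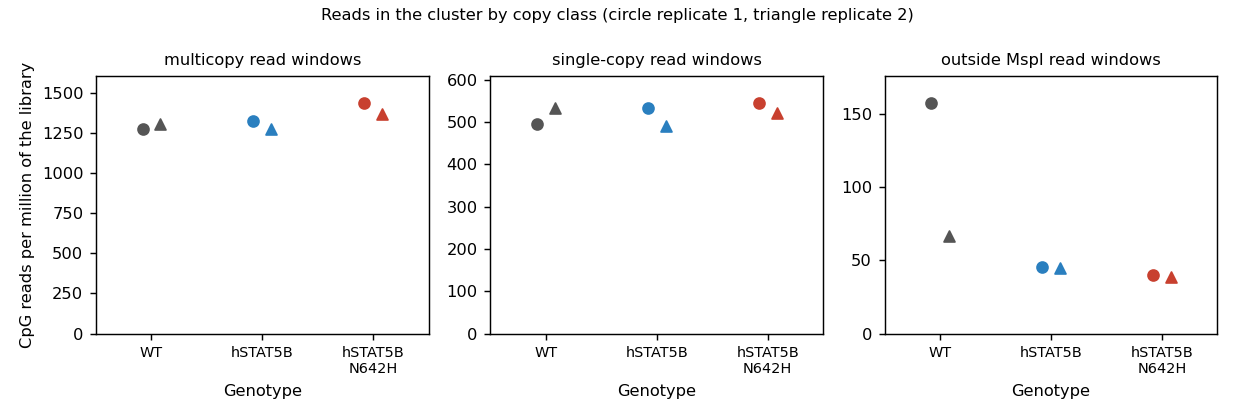
CpG reads of the interval in RPM, in multicopy read windows, single-copy read windows, and outside MspI read windows, for each library (circle replicate 1, triangle replicate 2). The first classes differ little between genotypes, though both hSTAT5BN642H libraries are highest in multicopy windows. WT replicate 1 is highest outside the windows, at 157 RPM.

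Of 211 bins of 5 kb with 100 or more reads over the libraries, none passed the voom test of limma (adjusted p of at least 0.234 for hSTAT5BN642H against WT, with an unadjusted p under 0.05 at 44 bins, against 12.1% of all bins), and 0.00218% of all bins did. By size, 29 bins differed at least 2-fold in that comparison, 28 of them lower in hSTAT5BN642H, against 7.55% of all bins (6.84% lower). Limited to CpGs in MspI windows, 10 of 192 bins differed as much, against 4.87% of all bins. For hSTAT5B against WT it was 23 of 211, all lower (genome 4.61%, 4.02% lower), and 7 of 192 within windows (genome 3.1%). Without WT replicate 2, so that replicate 1 alone stood for WT, 9 bins passed the test for hSTAT5BN642H against WT (genome 1.59%), and without WT replicate 1, 0 did (genome 0.0035%). In the other comparisons, 0 bins of the interval passed, and 0.00175% of all bins did for hSTAT5B against WT.

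The bin with the highest ratio lies at 145575001, with the pseudogenes Gm13228, Gm13226, and Gm13222. It had 1.63 and 1.77 RPM in WT, 2.02 and 3.1 in hSTAT5B, and 5.09 and 3.19 in hSTAT5BN642H. The log2 change of hSTAT5BN642H against WT was 1.26 ± 0.3 (SE; adjusted p = 0.24, voom of limma). The 5 lowest ratios without overlap of the genotypes, with log2 changes of -4.24 to -2.87, were at bins of few reads, and WT replicate 1 was the highest library at all 5 (adjusted p of 0.234 to 0.406, voom of limma). At the lowest, the bin at 147515001, the values were 1.5 and 0.276 RPM in WT, 0.148 and 0.485 in hSTAT5B, and 0.0895 and 0 in hSTAT5BN642H, with 93.9% of the reads outside windows. The bin at 146525001 in Zfp981, with the lowest p, had 2.15 and 1.47 RPM in WT, 0.885 and 0.416 in hSTAT5B, and 0.209 and 0.276 in hSTAT5BN642H, with 49% of its reads outside windows.

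Genes of the machinery that KRAB zinc finger proteins recruit were measured at their starts. Of 26 such genes, 17 had a CGI with 3 or more CpGs over the start, among them Setdb1, Morc2a and Fam208a (both of the HUSH silencing pathway), the remodeller gene Hells, and the DNA methylation genes Dnmt3b and Uhrf1. None of the 17 CGIs exceeded 11.6% in any library (85.5% of all CGIs had a mean below 10%), none differed by more than 3.83 points between genotypes, and 0 of 17 passed the limma test in any comparison (unadjusted p under 0.05 at 1, 3, and 1, against 5.7%, 6.19%, and 5.7% of all CGIs). Resf1, a partner of SETDB1, was the gene with p under 0.05 in hSTAT5BN642H against WT, 2.55 points higher. Its p was also under 0.05 in hSTAT5B against WT, 1.88 points higher. Its levels were low, at 0.843% to 4.87% in the 6 libraries. Trim28, Dnmt1, and Dnmt3a were among the genes without such a CGI.

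Markers of the labelled cells were read as the mean level within 10 kb of the gene. Near Cd8b1, the CD8 beta chain, the level was 44.2% and 45.6% in WT, 23.9% and 29.4% in hSTAT5B, and 13.9% and 14.3% in hSTAT5BN642H (8 CpGs). Near Cd8a it was 65.7% in WT replicate 1 and 29.8% to 42.6% in the other 5 libraries (14 CpGs). Near Cd3e it was 85.6% to 92.5%, near Cd4 29.2% to 30.9%, and near Cd79a 8.39% to 11.1%. The order of the genotypes near Cd8b1 is opposite to that of the CGI level of the cluster, and the part of the cell composition of the libraries in the differences of the cluster was not tested. Methylation near these genes does not by itself identify a cell type.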

How the data were processed

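RRBS libraries of CD8+ T cells from 6 mice (WT, hSTAT5B, and hSTAT5BN642H, n = 2 each) were analysed from the deposited files. The authors trimmed 50-base reads with Trimmomatic and aligned them with BSMAP in RRBS mode to GRCm38 (versions are not given in the sources used here). Per CpG, the deposited files hold 2 counts, those of methylated and of total reads, unnormalized, plus a score of up to 1000 that the authors computed from them and that was used as a check alone. Total CpG reads per library were 43291086 to 67007186, with a median of 5 to 11 reads per CpG listed and 23 to 46 at the CpGs used. The precision of single CpGs is limited accordingly, and PCR duplicates cannot be recognised in RRBS.

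The members and all lists were chosen with earlier results of these data known. CGIs (16095) were called on the reference (CpG scored 17 and other dinucleotides -1, at least 200 bases, GC above 50%, observed to expected CpG above 0.6). The level of a CGI or 5-kb bin is the mean of its CpGs with 5 or more reads in all libraries, with at least 3 such CpGs. Features were tested genome-wide with limma 3.58.1 (R 4.3.3) on log2((methylated + 1)/(unmethylated + 1)), and reads per bin with its voom on the file totals, in a fit of all 6 libraries with Benjamini-Hochberg adjustment. A count model had been planned for the reads, and voom was run on the same counts in its place. Fits were tested on simulated data, where the test of levels missed moderate changes and recovered very large ones at deeply read features. Copies are exact matches of the 50 bases read from an MspI site, on either strand. Genes are those of GENCODE M21, and RefSeq promoters and starts are those of GRCm38. Named were all CGIs with 3 or more CpGs, the 10 bins with the largest difference between genotypes without overlap, the 5 highest and lowest read ratios to WT without overlap (examples are given), bins over starts of zinc finger genes, and the neighbouring genes. Each library is 1 mouse, so p-values reflect the spread between mice with n = 2. A further marker gene is not reported here.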

Additional observations from a re-analysis of the deposited data

How the results depend on the processing

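With the limma tests, no CGI or bin of the interval passed under any alternative listed for it (offset 0.5, trend, other read or CpG minimum, pooled reads, single-copy CpGs, other bin sizes, each library left out). The limma tests had little power, so this lack of calls does not show that levels were alike. Fisher's exact test on pooled reads leaves out the spread between mice. It called 10, 4, and 6 of 26 CGIs and 20, 9, and 16 of 116 bins (hSTAT5BN642H against WT, hSTAT5B against WT, hSTAT5BN642H against hSTAT5B). Over the genome it called 1120, 629, and 1029 of 13347 CGIs (8.39%, 4.71%, and 7.71%). Of 120214 bins in the genome it called 13184, 5436, and 12928. The same order holds for what follows, and the cause of each change was not tested. CGIs past 5 points in the last comparison were 2 of 22 with 10 or more CpGs per CGI (9.09%, genome 3.07%). With pooled reads they were 3 of 26 (11.5%, genome 5.58%). Bins past 5 points were 9, 3, and 6 of 58 with 10 or more CpGs (15.5%, 5.17%, and 10.3%, against 6.61%, 4.55%, and 6.16% of all bins). With 1 read per CpG they were 47, 35, and 40 of 161 (29.2%, 21.7%, and 24.8%, against 27.1%, 24%, and 27.6%). In bins of 2 kb they were 14 of 139 for hSTAT5B against WT (genome 21329 of 130789). Read bins past 2-fold were 150, 112, and 85 of 391 with no filter (genome 137855, 107324, and 87740 of 406520). By the deepest CpG they were 5, 2, and 5 of 164 (genome 4110, 2228, and 3720 of 182275). Within MspI windows, chosen after seeing the data, they were 10, 7, and 6 of 192 (genome 10721, 6823, and 8325 of 220304). With single-copy CpGs they were 11 and 5 of 105 in the first 2 comparisons (genome 9134 and 6174 of 158264). The change in mean level reversed for all CpGs in hSTAT5BN642H against WT with pooled reads (-1.55 points) and against hSTAT5B with 1 read (0.0708), for CGI CpGs in hSTAT5BN642H against hSTAT5B with pooled reads (-1.37), and outside CGIs in hSTAT5B against WT with single-copy CpGs (-0.0878).

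Leaving out 1 library gave 7 to 10, 4 to 8, and 4 to 8 CGIs past 5 points, 18 to 29, 8 to 21, and 15 to 20 bins, and 22 to 51, 16 to 36, and 11 to 23 read bins past 2-fold, and in both comparisons with WT the highest counts of bins and read bins came without WT replicate 2, as did the 9 of 0 to 9 read bins called in the first. In the genome, the ranges past 5 points were 760 to 1025, 686 to 1029, and 780 to 1059 of 13347 CGIs. For bins they were 22316 to 28767, 18090 to 26421, and 22033 to 28805 of 120214. Read bins past 2-fold were 15661 to 28490, 10437 to 22203, and 10801 to 18153 of 228841. Changes in mean level in the interval ranged from 0.156 to 1.56, 0.282 to 1.68, and -0.245 to -0.00806 for all CpGs, 1.44 to 3.61, 0.862 to 3.03, and 0.388 to 0.772 for CGI CpGs, and -0.927 to -0.169, -0.206 (without WT replicate 1) to 0.552, and -0.792 to -0.65 outside CGIs. With the replicate number as a block, called CGIs, bins and read bins of the interval stayed at 0, 0, and 0. The numbers do not pair mice: deviations of same-numbered libraries correlated at -0.0199, 0.0011, and 0.00908 across 13347 CGIs. The planned TMM factors and DESeq2 fit were not run. Depth limits single CpGs, and multicopy windows limit the locus.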
